A study of Rattus norvegicus with 47 samples.

Results

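Rat liver adenomas and foci of altered hepatocytes were compared in formalin-fixed, paraffin-embedded (FFPE) tissue. The comparison held every array whose group label is Adenoma_FFPE (n = 5) or Foci_FFPE (n = 9), 14 of the 47 arrays of the series. All rats were male Wistar rats that received N-nitrosomorpholine, a carcinogenic nitrosamine, once (250 mg/kg) at 4 weeks of age. After 3 weeks of recovery they drank phenobarbital (50 mg/kg per day), and the labels give 17 months of phenobarbital for each fixed sample, surrounding liver included. No animal without these agents is among the groups used, so every group shares both treatments. Lesions were cut out by laser microdissection and each array holds RNA of 1 lesion or 1 area of surrounding liver, in which fewer cells of a type and less RNA per cell cannot be told apart.

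The animal is the number that opens each sample title. Adenoma replicates 1 and 2 came from animal 10, replicates 3 and 4 from animal 14 and replicate 5 from animal 7. Foci replicates 1 to 3 came from animal 10, replicates 4 to 6 from animal 18 and replicates 7 to 9 from animal 7. Only 2 animals, 10 and 7, therefore carried both lesion types on these arrays, and lesions of 1 rat are not independent animals. Surrounding liver (Surrounding_FFPE, n = 4) was measured once in each of these 4 rats. Levels are log2 values of 1 probe set per gene, and 1 log2 unit is a 2-fold difference.

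Foci are small patches of altered hepatocytes that appear in the liver after a carcinogen, and adenomas are larger benign tumours of hepatocytes. In the rat, foci are classically recognised by staining for the placental glutathione transferase Gstp1. Phenobarbital activates the nuclear receptor CAR, induces drug-metabolising enzymes in hepatocytes and promotes the outgrowth of initiated cells. Many enzymes of rat liver also depend on the male pattern of growth hormone secretion, with the testosterone hydroxylase Cyp2c11 as the standard example, and the decorin gene Dcn is made by stellate cells and fibroblasts, which lay down the matrix around hepatocytes.

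The arrays were of similar shape, with medians of 5.58 to 5.68 and interquartile ranges of 2.56 to 3.00 over all probe sets. Adenoma replicate 4 had the lowest mean correlation with the other 17 fixed arrays, 0.898, against 0.922 to 0.944 in the other arrays of all groups. Its source name reads surrounding tissue, while its group label reads adenoma. Its Gstp1 level was 13.77 and that of Akr1b8, an aldo-keto reductase raised in these lesions, was 12.16. The surrounding liver of the same animal had 9.33 and 6.94, so on these markers the array lay with the lesions. The hepatocyte gene Alb, for albumin, was at 14.15 to 14.54 in adenomas and 14.26 to 14.46 in foci, high in both.

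The first question was which genes separate an adenoma from a focus in fixed tissue. The difference, adenoma minus focus, was fitted with limma with the animal as a block and adjusted by Benjamini-Hochberg over 14217 genes. No gene passed (0%, lowest adjusted p = 0.828). At an unadjusted p under 0.05 limma counted 633 genes (4.45%), 333 higher in adenomas (2.34%) and 300 lower (2.11%). This share is below the 5% that such a threshold passes on average where no gene differs, so a gene named here at an unadjusted p under 0.05 is given as a value and not as a change. The precision was moderate, with a median standard error of 0.297 log2 and a median 95% interval of ± 0.609. For 10974 genes (77.2%) the whole interval lay within 1 log2 unit of 0. A single gene of median precision needed a difference of 1.73 log2 to pass on its own. Without adenoma replicate 2 the count was 1 gene, Cyp2c11, and without adenoma replicate 5 it was 1 gene, Cyp8b1, both described with their values here.

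The markers by which foci are known lay in the same range in adenomas. Gstp1 measured 13.44, 13.72, 13.43, 13.77 and 13.92 in adenoma replicates 1 to 5. The 9 foci lay between 13.67 and 13.89 with a median of 13.79, within the range of the adenomas. The surrounding liver measured 12.17, 9.33, 7.15 and 8.86 in animals 10, 14, 18 and 7, below every lesion. The fitted difference of Gstp1 was -0.41 ± 0.42 (SE, 95% interval -1.27 to 0.45, adjusted p = 0.999 by limma). The plain difference of the group means was -0.12, and the fit with the block on the lesion arrays alone gave -0.09. Ggt1, the gamma-glutamyl transferase long used as a histochemical focus marker, had a mean of 9.35 ± 0.59 (SD, n = 5) in adenomas and 9.78 ± 0.48 (SD, n = 9) in foci. Its difference was -0.34 ± 0.25 (95% interval -0.85 to 0.16). Akr1b8 had a mean of 12.05 ± 0.47 in adenomas and 12.11 ± 0.26 in foci, with a difference of -0.13 (95% interval -0.87 to 0.60). Of 21 measured focus and oncofetal markers 12 lay above 0 and 9 below, with a median of 0.07 beside -0.0065 over all genes tested. The list's members at an unadjusted p under 0.05 were Dnaaf1, a dynein assembly factor, at 1.16 ± 0.51 and the export pump Abcb1a at -0.71 ± 0.29, which was -0.45 without adenoma replicate 5.

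How far each lesion had moved from surrounding liver was then read from genes that the lesion itself had no part in choosing. For each array, genes were taken that differed by at least 2 log2 units, without overlap, between the foci and the surrounding liver of the other animals. The array was placed on each gene as a percentage, with 0% at the mean of that surrounding liver and 100% at the mean of those foci. The median over 28 to 36 genes higher in foci placed the adenomas at 85.8%, 108%, 98.8%, 117% and 101% in replicates 1 to 5. The foci lay between 72.6% and 115% and the surrounding liver between -6.75% and 23.1%. Adenomas and foci overlapped on these genes, among them Gstp1, Ggt1, Akr1b8 and the glutathione peroxidase Gpx2. The mean of the adenomas was 6.11 percentage points above that of the foci (exact permutation test over 14 lesions with animals not kept apart, two-sided p = 0.422, and 0.675 adjusted by Benjamini-Hochberg over the 4 placement tests). Over the 9 lesions of animals 10 and 7, pooled, the mean of the adenomas minus that of the foci was -4.11 points (exact permutation test with lesion type shuffled within animal, two-sided p = 0.625, adjusted 0.675, smallest possible 0.025). This pooled value is not a mean of differences within each animal.

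The genes lower in foci gave another order. Chosen without animal 14, they included Cyp8b1, Slc1a2 and the male-predominant Cyp2c11, Sult1c3, Avpr1a, Car3 and Dhrs7l1. The later values of these genes and of the male-predominant list are therefore not separate from this placement. The median over 15 to 21 such genes placed adenoma replicates 1 to 5 at 49.3%, 68.6%, -2.58%, 57.9% and 120%. The foci lay between 71.4% and 113%, and the surrounding liver between -34.4% and 26.7%. Adenoma replicates 1 to 4 therefore lay below all 9 foci, replicate 3 at the level of surrounding liver, and replicate 5 lay above all of them. The mean difference, adenomas minus foci, was -36.3 points (exact permutation test over 14 lesions with animals not kept apart, two-sided p = 0.0285, adjusted 0.114), which did not pass after adjustment. Pooled over the 9 lesions of animals 10 and 7 it was -8.22 points (exact permutation test with lesion type shuffled within animal, two-sided p = 0.675, adjusted 0.675). This pooled value does not describe either animal. The adenomas of animal 10 lay below its foci (96.7% to 98.8%) and that of animal 7 above its foci (71.4% to 81.8%). The surrounding liver of animal 14 also had the lowest placement, -34.4%, and this animal has no focus array, so lesion type and animal cannot be told apart for replicates 3 and 4. With genes chosen at 1 log2 unit in place of 2, the adenomas spanned 40.2% to 100% and the foci 71.3% to 104%. Replicates 1 and 3 then lay below all foci, at 65.5% and 40.2%. Replicates 2, 4 and 5 lay within the range of the foci, at 98.3%, 81.7% and 100%, so the order above depended on the threshold. The mean difference over 14 lesions was -10.4 points (exact permutation test, two-sided p = 0.313).

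**Figure D1:**
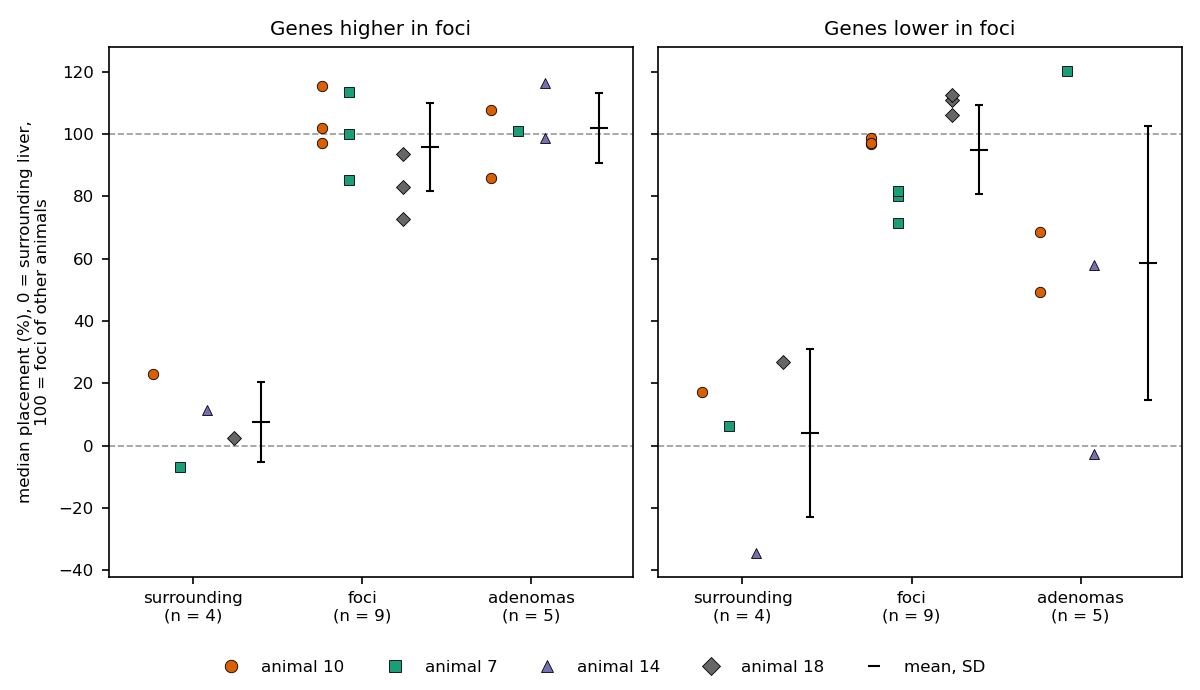
Median placement of each array, in percent (y axis), on genes higher in foci (left) and lower in foci (right), chosen from the foci and surrounding liver of the other animals; points are arrays, shapes and colours are animals, and bars give the mean and SD of a group. On genes higher in foci the adenomas (85.8% to 117%) and foci (72.6% to 115%) overlap, while on genes lower in foci the adenomas spread from -2.58% to 120%.

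Cyp2c11, the male-specific P450 enzyme, was one of the genes lower in foci than in surrounding liver. Its levels in adenoma replicates 1 to 5 were 11.54, 9.42, 12.88, 12.27 and 12.05. The foci measured 9.89, 9.87 and 9.76 in animal 10, 9.27, 8.84 and 8.99 in animal 18, and 10.53, 10.36 and 10.18 in animal 7. Adenoma replicates 1, 3, 4 and 5 lay above all 9 foci, and replicate 2 lay below the 3 foci of its own animal. The surrounding liver measured 12.15, 13.19, 11.42 and 12.20 in animals 10, 14, 18 and 7, so 4 of the adenomas lay within the range of surrounding liver. The fitted difference was 1.13 ± 0.27 (2.19-fold, 95% interval 0.59 to 1.68, adjusted p = 0.828 by limma). Without adenoma replicate 2 it was 1.68 ± 0.16 (adjusted p = 1.59e-06), and among 29 alternatives this was the only 1 in which Cyp2c11 passed.

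The male-predominant genes varied from lesion to lesion. Of 15 measured, Cyp2c11 included, 9 lay above 0 and 6 below, with a median of 0.10. Without the block the median was 0.75, and with only the lesion arrays in the fit it was 0.57. Sult1c3, a sulfotransferase, had 10.49, 10.46, 10.52, 9.51 and 8.25 in adenoma replicates 1 to 5 against 6.74 to 9.94 in foci (median 8.51). Adenoma replicates 1 to 3 lay above every focus and replicate 5 lay inside the foci of its own animal, at 8.13 to 8.90. Its fitted difference was 1.12 ± 0.40 (unadjusted p = 0.00999, adjusted p = 0.999 by limma), with 1.86 within animal 10 and -0.26 within animal 7, and it was 1.70 without adenoma replicate 5. Cyp2c13 differed by 0.70 ± 0.25 and Cyp2a2, a testosterone hydroxylase, by 0.68 ± 0.33. Without focus replicate 1 these were 0.44 and 0.36, and without adenoma replicate 1 Cyp2a2 was at 0.43. Sult1c3, Cyp2c13, Cyp2a2 and Cyp2c11 were the list's members at an unadjusted p under 0.05. The mean of the list relative to each gene's mean over the 18 fixed arrays was 0.38, -0.19, 1.41, 0.85 and -0.80 in the 5 adenomas, against -0.73 to -0.35 in the foci. Adenoma replicates 1 to 4 lay above all foci on this mean and replicate 5 below all of them. Obp3, an odorant-binding protein of male liver had high levels in 1 animal only, with 11.05 and 11.13 in the adenomas and 12.10 in the surrounding liver of animal 14. The other arrays of all groups had 4.39 to 7.83. Of the female-predominant genes, Cyp2c12 had a difference of -0.88 ± 0.49 (unadjusted p = 0.0843), and the median of 11 genes was 0.01.

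Cyp8b1, the sterol 12-alpha-hydroxylase that sets the balance of bile acids, went opposite ways in the animals with both lesion types. It was chosen for description after its values were seen. Its levels were 10.93, 10.93, 11.01, 10.20 and 6.38 in adenoma replicates 1 to 5, 7.82 to 9.07 in foci (median 8.24) and 10.42 to 11.88 in surrounding liver. Replicates 1 to 4 thus lay above every focus and replicate 5 below every focus. The fitted difference was 0.65 ± 0.42 (adjusted p = 0.999 by limma), with 2.06 within animal 10 and -1.94 within animal 7. Without adenoma replicate 5 it was 1.78 ± 0.27 (adjusted p = 0.00807). Cyp27a1, which starts the acidic pathway of bile acid synthesis, was higher in all 5 adenomas (10.83 to 11.67) than in all 9 foci (10.31 to 10.75). Its difference was 0.45 ± 0.16 (unadjusted p = 0.00775, adjusted p = 0.999), with 0.22 within animal 10 and 1.05 within animal 7, and it was 0.16 without adenoma replicate 5. Of 18 bile acid genes 8 lay above 0 and 10 below, with a median of -0.04, which was 0.11 within animal 10 and -0.13 within animal 7. The export pump Abcc2 (-0.43 ± 0.12) and the bile acid sensor target Nr0b2 (-0.60 ± 0.29) were the members below 0 at an unadjusted p under 0.05. Nr0b2 differed by -1.06 within animal 10 and 0.17 within animal 7, and by -0.31 without focus replicate 1.

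**Figure D2:**
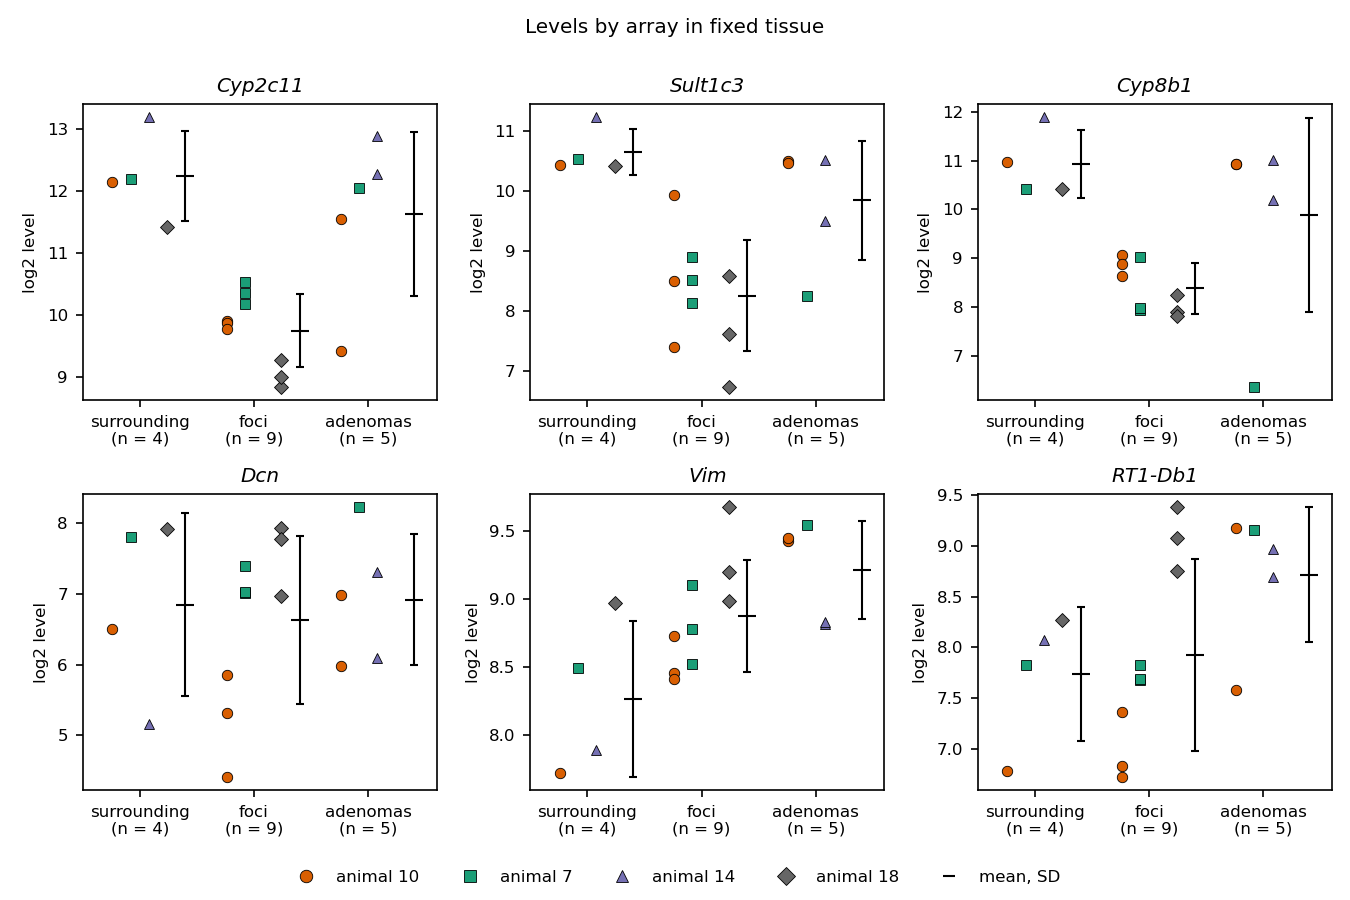
Log2 level (y axis) of 6 genes in surrounding liver, foci and adenomas; points are arrays, shapes and colours are animals, bars give the mean and SD. Cyp2c11 is high in 4 of 5 adenomas, Cyp8b1 is high in 4 and at 6.38 in the adenoma of animal 7, and Dcn, Vim and RT1-Db1 differ within animals 10 and 7 more clearly than between the whole groups.

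Dcn stood higher in the adenomas within animals 10 and 7, the 2 rats with both lesion types, while the groups as a whole overlapped. Adenoma replicates 1 to 5 measured 6.98, 5.97, 6.09, 7.30 and 8.21. The foci measured 5.85, 5.32 and 4.42 in animal 10, 7.92, 6.97 and 7.77 in animal 18, and 7.01, 7.02 and 7.39 in animal 7. In animals 10 and 7 every adenoma lay above every focus of the same rat, as in 2.46% of all genes. The surrounding liver had 6.50, 5.16, 7.91 and 7.80 in animals 10, 14, 18 and 7, so the animals differed in surrounding liver too. The fitted difference was 1.33 ± 0.34 (2.52-fold, 95% interval 0.64 to 2.03, adjusted p = 0.886 by limma), with 1.28 within animal 10 and 1.07 within animal 7. Without the block it was 0.28, so its size depended strongly on the animal block.

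Most other genes of matrix-forming cells also had differences above 0. Of 30 measured stellate cell, fibroblast and matrix genes 24 lay above 0 and 6 below, where 49.1% of all genes lay above, and the median was 0.28. At an unadjusted p under 0.05 there were 7 (2.34% of all genes), all above 0. In 6 of the 30 each adenoma of animals 10 and 7 lay above all foci of the same rat, as did 2.46% of all genes. Dcn itself is counted among the 24, the 7 and the 6. Vim, for the intermediate filament vimentin, had 9.43, 9.45, 8.82, 8.83 and 9.55 in the adenomas and 8.41 to 9.68 in the foci (median 8.78). Its difference was 0.81 ± 0.20 (adjusted p = 0.886), with 0.91 and 0.75 within animals 10 and 7. Col1a1, a chain of fibrillar collagen, had 8.26, 7.95, 6.91, 8.74 and 7.46 in adenomas against 6.44 to 8.03 in foci, a difference of 0.97 ± 0.33, and its second, dimmer probe set gave -0.04. Col3a1 differed by 0.67 ± 0.23, the basement membrane collagen Col4a1 by 0.71 ± 0.24, Mgp by 0.79 ± 0.31 and Sparc by 0.41 ± 0.19 (adjusted p = 0.999 for each of these 5 genes by limma). Mgp differed by 0.41 within animal 10 and 1.95 within animal 7, and without adenoma replicate 5 Mgp was at 0.29 and Sparc at 0.25. The foci of animal 18 had the highest list means of all foci, 0.18 to 0.56, beside 0.01 to 0.42 in the adenomas, and that animal has no adenoma array. The defining stellate genes Lrat and Des differed by 0.26 ± 0.30 and -0.07 ± 0.31. Without the block the median of the list was 0.14.

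The macrophage markers were the list with the highest median. All 17 measured markers had a fitted difference above 0 (49.1% of all genes), with a median of 0.52 and a range of 0.13 to 0.82. At an unadjusted p under 0.05 there were 10 (2.34% of all genes), and 0 passed adjustment. In 8 of the 17 the adenomas and foci of animals 10 and 7 did not overlap within the animal (2.46% of all genes). The median was 0.39 within animal 10 and 0.82 within animal 7. It stayed above 0 under all alternatives, between 0.39 and 0.82, and was 0.47 without adenoma replicate 5. The list mean relative to each gene's mean over the fixed arrays was 0.10, 0.07, 0.07, 0.05 and 0.71 in adenoma replicates 1 to 5. The foci lay between -0.49 and 0.06 and the surrounding liver between -0.12 and 0.78. The lowest list means were thus in foci, and the adenomas lay in the range of surrounding liver, but the groups overlapped. Focus replicate 8 (0.056) lay above adenoma replicate 4 (0.046). The surrounding liver of animals 14 (-0.02) and 18 (-0.12) lay within the range of the foci.

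The macrophage genes of smallest p had their lowest group mean in foci, while the lowest Cd68 value was in surrounding liver of animal 14 (8.51). Clec4f, a lectin of the liver's resident Kupffer cells, had 9.94, 9.72, 10.00, 10.04 and 10.69 in adenomas, 8.80 to 9.73 in foci (median 9.55) and 9.46 to 10.87 in surrounding liver. Only adenoma replicate 2 lay within the range of the foci. Its difference was 0.63 ± 0.21 (unadjusted p = 0.0051, adjusted p = 0.999 by limma). Mrc1, the mannose receptor, had 9.13, 8.89, 9.19, 9.13 and 9.91 in adenomas and 7.91 to 9.12 in foci (median 8.23), a difference of 0.80 ± 0.26. Adenoma replicate 2 lay within the range of the foci for this gene and the other 4 above it. Ctss, for the protease cathepsin S, differed by 0.69 ± 0.21 and C1qc, a chain of complement C1q, by 0.56 ± 0.18, with C1qa at 0.59 ± 0.23 and C1qb at 0.52 ± 0.19. The phagocyte marker Cd68 (0.57 ± 0.21), the growth factor receptor Csf1r (0.67 ± 0.30) and Adgre1 (0.82 ± 0.37) were also at an unadjusted p under 0.05. Mrc1 is also made by sinusoidal endothelial cells. Of 12 sinusoidal and vascular endothelial markers 9 lay above 0, with a median of 0.21, and the lead gene was Lyve1 at 0.62 ± 0.24.

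Blood cell and lymphocyte genes were read beside these lists. Blood cell genes had a list mean of 1.19 in adenoma replicate 5 and of -0.63 to -0.27 in the other adenomas. In the foci of the same rat, animal 7, it was 0.89 to 1.15, and in its surrounding liver 1.59. The median difference of the 7 blood cell genes was 0.07 and that of 12 lymphocyte markers 0.26, of which 0 were at an unadjusted p under 0.05. The part of cell content in the differences of the macrophage and stellate lists was not tested.

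**Figure D3:**
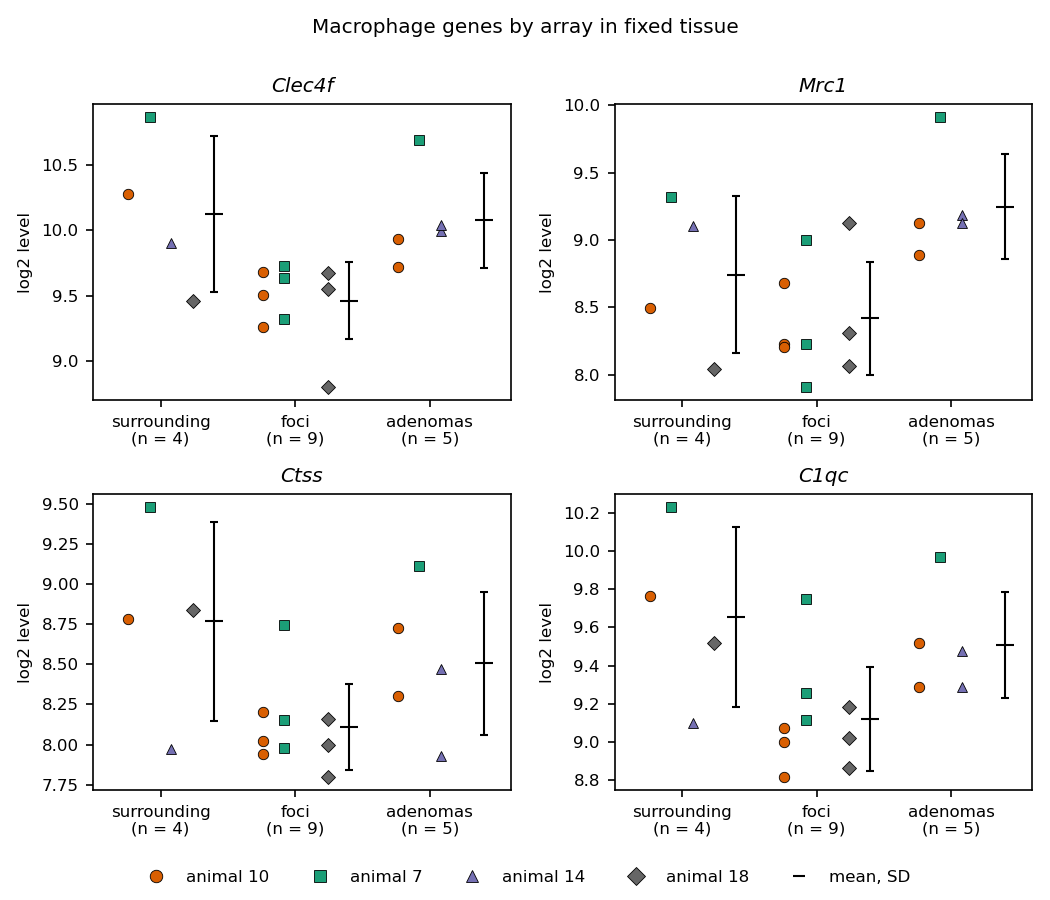
Log2 level (y axis) of 4 macrophage genes in surrounding liver, foci and adenomas; points are arrays, shapes and colours are animals, bars give the mean and SD. For each gene the mean of the foci is the lowest of the 3 groups, and the adenoma of animal 7 is the highest adenoma.

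MHC class II proteins present antigens on the cell surface. RT1-Db1, a class II beta chain, had the smallest unadjusted p of all genes (0.000148, adjusted p = 0.828 by limma). The 4 class II promoters that were looked up all held the letters of the Y box, a short element of class II promoters that binds the factor NF-Y. The windows of 60 bases are shown 5′ to 3′ on the gene's strand with CTGATTGG in capitals, from RefSeq promoters of build GRCr8, to show this shared element. RT1-Db1 lies at chr20:4560228-4560287 on the minus strand, RT1-Da at chr20:4515321-4515380 on the plus strand, RT1-Ba at chr20:4576969-4577028 on the plus strand and RT1-Bb at chr20:4604165-4604224 on the minus strand.
RT1-Db1: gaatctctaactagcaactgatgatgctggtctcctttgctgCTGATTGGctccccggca
RT1-Da: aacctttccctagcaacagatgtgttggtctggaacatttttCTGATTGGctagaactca
RT1-Ba: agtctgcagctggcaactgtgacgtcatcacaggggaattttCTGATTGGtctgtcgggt
RT1-Bb: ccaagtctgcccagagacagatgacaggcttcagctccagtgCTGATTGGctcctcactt
The element begins 83, 52, 46 and 64 bases before the start of the gene used in that table. Of 33469 rat promoters of the same 300 bases, 612 (1.83%) held CTGATTGG on the gene's strand, 593 (1.77%) its reverse complement CCAATCAG, and 1172 (3.50%) either. Cd74, the invariant chain that travels with class II proteins, did not hold these letters in its window. The match is a description of these promoters.

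RT1-Db1 measured 7.58, 9.17, 8.70, 8.97 and 9.15 in adenoma replicates 1 to 5. The foci measured 7.36, 6.83 and 6.73 in animal 10, 9.08, 9.38 and 8.76 in animal 18, and 7.68, 7.83 and 7.69 in animal 7. Within animals 10 and 7 each adenoma lay above each focus, by 1.40 and 1.42 on average, while the foci of animal 18 were as high as the adenomas. Such separation in both animals held for 2.46% of all genes. RT1-Db1 was named for its small p, its size and its same sign in these animals, so that sign was fixed by the choice. The fitted difference was 1.20 ± 0.27 (2.30-fold, 95% interval 0.64 to 1.76), and the second, much dimmer probe set gave 0.28. RT1-Ba, a class II alpha chain, differed by 0.60 ± 0.20 and Cd74 by 0.52 ± 0.20. Cd74 measured 9.16 to 9.90 in adenomas and 8.75 to 9.68 in the foci of animals 10 and 7. The foci of animal 18 all lay above every adenoma for Cd74, at 10.37 to 10.67. RT1-Da, named after its values were seen, differed by 0.65 ± 0.30, with 1.45 within animal 7 and -0.10 within animal 10. RT1-Bb, the partner chain of RT1-Ba, had a difference of 0.09 ± 0.38.

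The RT1 genes also differed between the rats themselves. RT1-Bb measured 3.86 and 3.68 in the adenomas of animal 10, 8.62 and 8.72 in those of animal 14 and 8.05 in that of animal 7. Over all groups RT1-Bb lay at 3.68 to 5.37 in animal 10 and at 6.73 to 8.05 in animal 7. The class I genes RT1-T24-4 and RT1-CE10, named after their values were seen, split the animals otherwise. In every group they set animals 10 and 7 apart from animals 14 and 18. RT1-T24-4 lay at 8.38 to 9.41 in all arrays of animals 10 and 7 and at 3.85 to 6.79 in all arrays of animals 14 and 18. RT1-CE10 lay at 6.82 to 8.11 in animals 10 and 7 and at 10.33 to 11.14 in animals 14 and 18. These values follow the animal numbers of the titles, and their part in the difference of RT1-Db1 was not tested. Of all 22 interferon and antigen presentation genes 17 lay above 0 (49.1% of all genes), with 6 at an unadjusted p under 0.05 (2.34% of all genes) and a median of 0.24. Within animal 10 the median was -0.03 with 8 of 22 above 0, and within animal 7 it was 0.22 with 16 of 22 above 0. Mx1, an interferon-induced antiviral protein, differed by 0.88 ± 0.33 (0.51 without adenoma replicate 5), and Ciita, the master switch of class II genes, by 0.43 ± 0.34.

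NRF2 targets, a group of antioxidant and conjugation genes, mostly had small differences below 0. Of 26 measured, 22 had a fitted difference below 0 (50.9% of all genes), with a median of -0.12. Without the block the median was -0.04, and without adenoma replicate 1 it was 0.00065. Srxn1, for sulfiredoxin, measured 9.29, 10.14, 10.44, 11.13 and 10.15 in adenomas, 10.03 to 11.45 in foci and 5.96 to 8.05 in surrounding liver. Its difference was -0.78 ± 0.26 (unadjusted p = 0.00667, adjusted p = 0.999 by limma), and that of the autophagy receptor Sqstm1 was -0.32 ± 0.15 (-0.21 without adenoma replicate 1 and -0.49 without adenoma replicate 5). Gclc, which limits glutathione synthesis, differed by -0.29 ± 0.16. Aldh3a1, an aldehyde dehydrogenase, had the list's widest error, 0.78 ± 0.85.

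Phenobarbital-responsive genes split evenly, with 9 above 0, 10 below and a median of -0.0041 over 19 genes. The 3 at an unadjusted p under 0.05 were all lower in adenomas, as were 2.11% of all genes, while 2.34% of all genes were higher. Por, the reductase that feeds electrons to all microsomal P450 enzymes, measured 11.08, 10.79, 11.54, 11.21 and 11.40 in adenomas and 11.23 to 12.09 in foci (median 11.69), a difference of -0.46 ± 0.14 (adjusted p = 0.977). Abcc2, also counted among the bile acid genes, had 11.56 to 11.87 in adenomas and 11.38 to 12.30 in foci. Alas1, the first enzyme of haem synthesis, differed by -0.28 ± 0.14. The xenobiotic receptors Nr1i2 (PXR) and Nr1i3 (CAR) differed by -0.28 ± 0.16 and -0.23 ± 0.18.

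Proliferation genes overlapped between the lesion types. Of 28 measured, 10 lay above 0 and 18 below, 0 reached an unadjusted p of 0.05 in limma, and the median was -0.17. Mki67, the gene of the cycling-cell antigen Ki-67, had a mean of 4.88 ± 0.52 (SD, n = 5) in adenomas and 4.88 ± 0.68 (SD, n = 9) in foci, with a difference of 0.11 (95% interval -0.67 to 0.90). The list mean was 0.61 in adenoma replicate 2 and -0.21 to -0.12 in the other 4 adenomas, while the foci lay between -0.16 and 0.52. Of 19 p53 targets and cell cycle inhibitors 0 reached an unadjusted p of 0.05, and Cdkn1a, for the inhibitor p21, differed by 0.54 ± 0.32.

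Pck1, the gluconeogenic enzyme of periportal hepatocytes, measured 11.77, 12.51, 12.09, 11.97 and 11.14 in adenomas and 9.81 to 11.87 in foci (median 11.25). Adenoma replicates 2, 3 and 4 lay above every focus. Its difference was 0.90 ± 0.30 (unadjusted p = 0.00648, adjusted p = 0.999), with 1.77 within animal 10 and -0.25 within animal 7. It was 0.57 without adenoma replicate 2 and 1.35 without adenoma replicate 5. Of 17 periportal genes 13 lay above 0, with a median of 0.15 (0.32 within animal 10 and -0.08 within animal 7), and the gluconeogenic Fbp1 (0.32 ± 0.15) and Aldh1b1, at 4.98 to 7.43 in adenomas and 3.83 to 6.02 in foci, were the other members at an unadjusted p under 0.05. Glul, the glutamine synthetase of pericentral hepatocytes and a target of beta-catenin, had 10.72 to 11.49 in adenomas and 9.77 to 11.39 in foci, a difference of 0.58 ± 0.20. The 14 pericentral and Wnt targets had a median of 0.12 in the fit, 0.32 within animal 10 and -0.95 within animal 7. Slc1a2, a glutamate transporter of pericentral cells, differed by 1.96 within animal 10 and -1.22 within animal 7.

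Of 20 fatty acid oxidation and ketone genes 14 lay above 0, with a median of 0.12. Of 19 fatty acid synthesis genes 13 lay below 0, with a median of -0.12. Within animal 10 the median was -0.43 with 6 of 19 above 0, and within animal 7 it was 0.32 with 14 of 19 above 0. Thrsp, a regulator of lipogenesis, differed by -0.57 ± 0.22, with -1.25 within animal 10 and 0.32 within animal 7, and it was -0.29 without adenoma replicate 2 and -0.88 without adenoma replicate 5. Of 17 cholesterol synthesis genes 11 lay below 0, with a median of -0.09 and Insig1 at -0.56 ± 0.24. Among 22 inflammatory mediators the chemokine Cxcl12 (0.48 ± 0.19) and the cytokine Il1b (0.64 ± 0.30) were at an unadjusted p under 0.05, and the list median was 0.18. The acute phase genes had a median of 0.01 over 19 genes, with Lbp, which binds bacterial lipopolysaccharide, at 0.45 ± 0.16. The medians were 0.22 over 8 cholangiocyte and progenitor markers, 0.04 over 11 hepatocyte genes, -0.16 over 16 hepatocyte transcription factors, 0.02 over 15 glycolysis genes and -0.0024 over 16 immediate early genes.

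**Figure D4:**
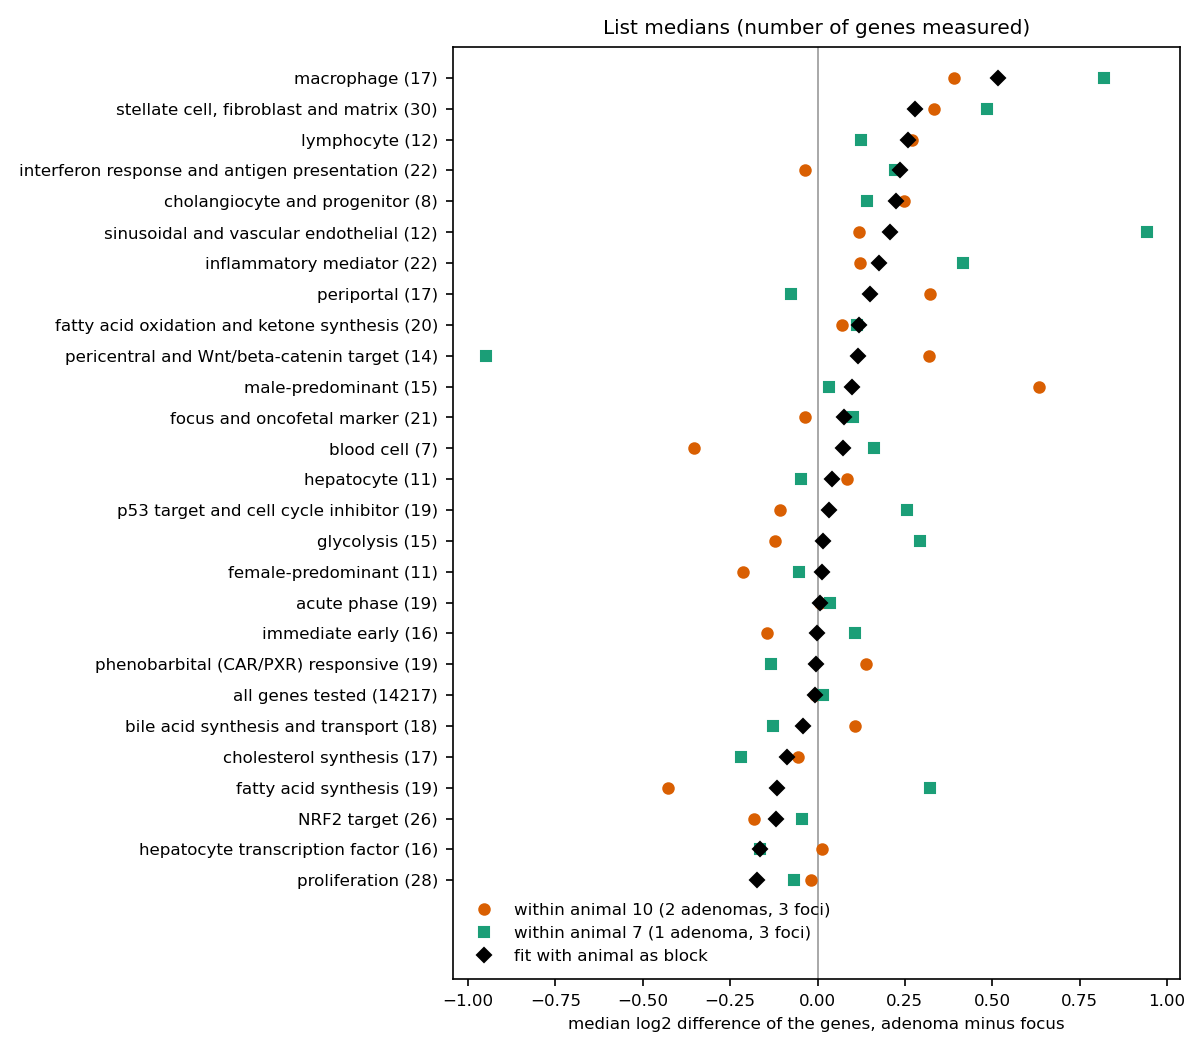
Median log2 difference, adenoma minus focus (x axis), of the genes in each list and of all genes tested, from the fit with animal as block and within animals 10 and 7. The macrophage list has the highest median of the fit (0.52) and lies above 0 in both animals, while the pericentral list is at 0.32 in animal 10 and -0.95 in animal 7.

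Beside Cyp2c11, Dcn and RT1-Db1, 7 further genes completed the 10 of smallest p above 0 with a difference of at least 1 log2 unit and the same sign in animals 10 and 7. Spink1, a secreted trypsin inhibitor, measured 7.68, 8.37, 8.39, 8.95 and 8.32 in adenomas and 6.37 to 8.54 in foci (median 7.40). Its difference was 1.02 ± 0.26 (adjusted p = 0.886 by limma), and its other probe sets gave 1.20 and 1.54. The surrounding liver had 7.75 to 8.97, at the level of the adenomas. Acsf2, a mitochondrial acyl-CoA synthetase, measured 8.07, 7.55, 6.53, 7.38 and 7.74 in adenomas, 6.26 to 7.03 in foci and 6.97 to 8.57 in surrounding liver. Only adenoma replicate 3 lay within the foci. Cnrip1, which binds the cannabinoid receptor, had 5.62 to 6.41 in adenomas and 3.84 to 6.29 in foci, a difference of 1.31 ± 0.38. The others were Suz12, a subunit of the Polycomb repressive complex (1.47 ± 0.39), Ppp1r16b, a regulatory subunit of protein phosphatase (1.06 ± 0.29), the thiol dioxygenase Ado (1.24 ± 0.35) and Mk1 (1.02 ± 0.30). Suz12 was low in both adenomas of animal 14, at 4.11 and 5.10, where the surrounding liver was also low at 4.13, and the plain group difference was 0.30.

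Among genes at least 1 log2 unit below 0 with the same sign in both animals, Dao had the smallest p. It encodes the peroxisomal D-amino acid oxidase. Its levels were 8.93, 8.81, 9.25, 9.65 and 5.79 in adenoma replicates 1 to 5 and 8.58 to 9.91 in foci. The difference of -1.41 ± 0.33 (adjusted p = 0.828) rested mostly on replicate 5, with -3.23 within animal 7 and -0.80 within animal 10, and it was -0.57 without that replicate. Psmc6, an ATPase of the proteasome, differed by -1.27 ± 0.32, but the foci of animals 18 and 7 (6.43 to 7.83) overlapped the adenomas (6.77 to 7.69). Ercc6, a repair protein that follows transcription, had 4.93 to 6.35 in adenomas and 5.61 to 7.08 in foci, and differed by -1.02 and -1.13 within animals 10 and 7. Tprkb measured 5.57 to 6.24 in adenomas and 6.12 to 7.44 in foci, with a difference of -1.02 ± 0.30. The ubiquitin ligase Syvn1 (-1.19 ± 0.34), the Wnt acyltransferase Porcn (-1.08 ± 0.34), the transcription factor Atf1 (-1.10 ± 0.36), the fucose mutarotase Fuom (-1.02 ± 0.32), C3h9orf78 (-1.06 ± 0.30) and LOC100360933 (-1.12 ± 0.34) completed the 10 genes.

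**Figure D5:**
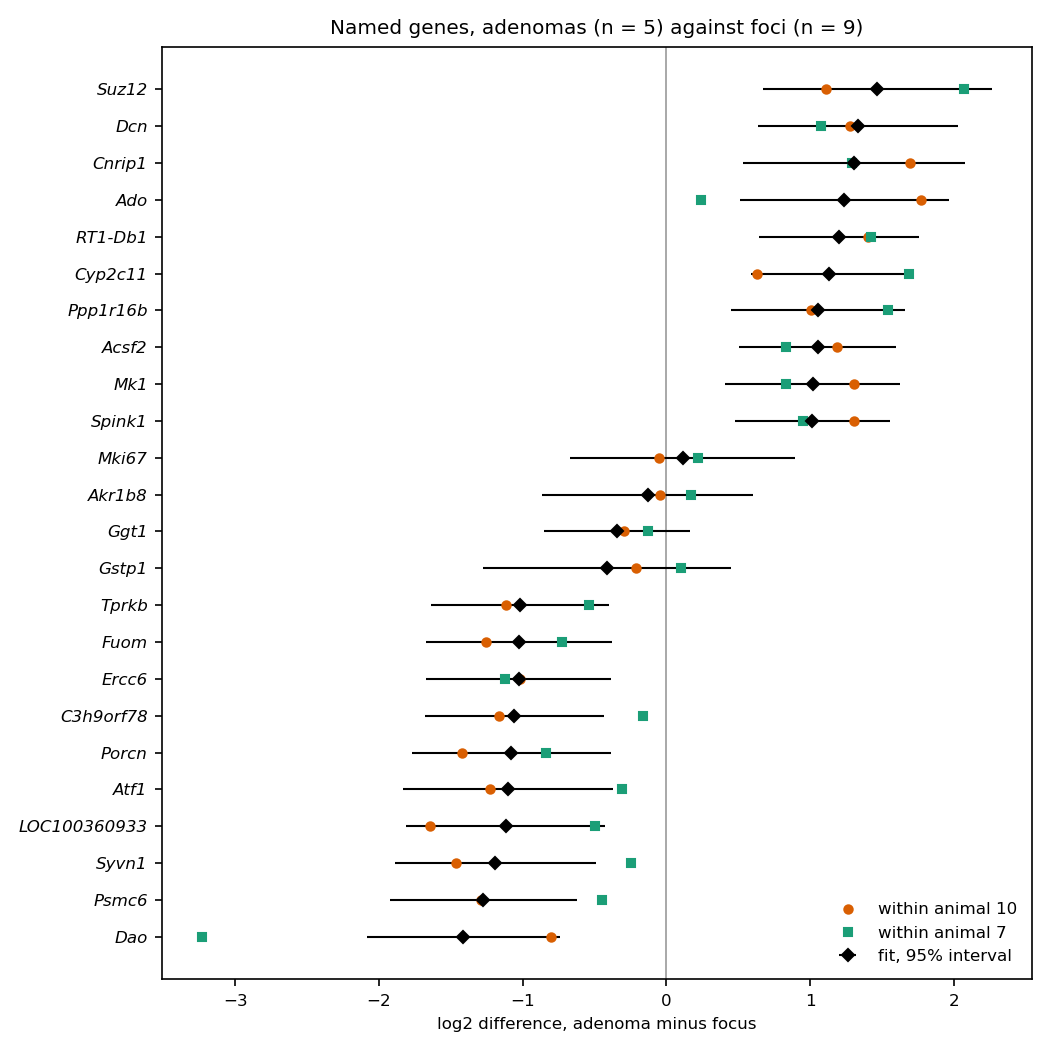
Fitted log2 difference, adenoma minus focus (x axis), with its 95% interval for the markers and the genes with the smallest p in each direction, and the differences of means within animals 10 and 7. Intervals of the focus markers and Mki67 cross 0, and Dao is at -3.23 within animal 7 against -0.80 within animal 10.

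A further count used no model. In 8 genes (0.0563%) all 5 adenomas lay above all 9 foci, and in 8 (0.0563%) all lay below. Read within animals 10 and 7 only, 350 genes (2.46%) were apart with the adenomas higher and 335 (2.36%) with the adenomas lower. Lesion type can be arranged in 2002 ways over the 14 lesions, and 1 arrangement is a share of 0.0004995. Within animals 10 and 7 there are 40 ways, and the share is 0.025. The counts lay near these shares, so the genes are given as values and not as changes. The 8 genes higher in all adenomas were Cyp27a1, Nucb1, Camk2d, Dclre1b, Chsy3, Atg10, Tcp11l2 and Aimp1-ps3, with fitted differences of 0.23 to 0.90. The lower genes were Pbx4, Krt4, Anks1b, Chadl, Smad5, Fastk, Rnpepl1 and Gid8, with -0.86 to -0.35. These were named after their values were seen. Camk2d, a calcium-dependent kinase, had means of 5.39 in adenomas and 4.58 in foci, and Smad5, a signal carrier of bone morphogenetic proteins, 7.34 and 7.91.

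The titles give both adenomas of animal 14 a tumour number that frozen adenomas of the same rat carry. Cyp2c11 measured 12.88 in the fixed and 12.91 in the frozen array of tumour 4, and 12.27 and 10.53 in those of tumour 5. Over 7108 genes above the median level, each centred within its fixation, fixed tumour 5 correlated with frozen tumour 5 at r = 0.23, the second highest of 26 frozen arrays. Fixed tumour 4 correlated with frozen tumour 4 at r = 0.07, the seventh of 26. Genes are not independent replicates, these correlations are a description, and levels across fixations were deposited in 1 table without a stated normalization.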

How the data were processed

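The deposited table holds log2 levels of probe sets on single-colour rat expression arrays, and these were taken unchanged. Fixed lesions were isolated by laser microdissection and extracted with an FFPE kit, per the labels' protocols. Background correction, normalization and the labelling kit for fixed tissue are not given in the sources used here. Of 31042 probe sets, 20826 have 1 gene symbol, 436 several and 9780 none, and only the first were used, with the probe set of highest mean for each of 14217 genes. The 18 fixed arrays of adenomas, foci and surrounding liver were fitted with limma 3.58.1 in R 4.3.3 (group, animal as block, intensity trend, 12 residual degrees of freedom) and adjusted by Benjamini-Hochberg at 0.05. The 1 fixed array labelled C43 was left out. Errors beside differences are standard errors. Scripts were tested on simulated data.

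The animal pairs the arrays, because lesions came from the same rats. As a check, 23 pairs of arrays from 1 animal but different groups were correlated after removal of group means. The median was 0.11, with 15 pairs above 0.1, and it was -0.04 over 78 pairs from different animals. The p-values rest on the spread between all fitted arrays, surrounding liver included, and several lesions share a rat. Through the block, surrounding liver also brought the rats with only 1 lesion type into the fitted difference. That of Gstp1, for example, went from -0.41 to -0.03 without surrounding liver replicate 3. Named genes were Dcn and Cyp2c11, 4 markers (Gstp1, Ggt1, Akr1b8, Mki67), the 10 genes of smallest p in each direction with a difference of at least 1 and 1 sign in animals 10 and 7, and up to 4 genes of smallest p in each of 26 lists (430 of 490 genes measured), with any macrophage, stellate or male-predominant member. Members and lists were chosen with earlier results of these data known. Promoters came from RefSeq (GRCr8), and 20758 gene identifiers matched its table. The placement was added after seeing the data. Alternatives concerned the block, arrays, probe sets, low levels, normalization and the variance model.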

Additional observations from a re-analysis of the deposited data

Results flagged for a closer look

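Among 270 groups of arrays (genes, list means, placement and array quality in the 3 fixed groups), 20 held an array far from the others, and chance alone gives about 1 in 20. Adenoma replicate 5, from animal 7, stood apart from the other adenomas in 5 of these. Its Dao level was 5.79 (next lowest 8.81) and its Cyp8b1 level 6.38 (next lowest 10.20). Its Cyp27a1 level was 11.67 (next highest 11.02). Its macrophage list mean was 0.71 (next 0.10) and its blood cell list mean 1.19 (next -0.27). Adenoma replicate 2 stood apart by a proliferation list mean of 0.61 (next -0.12), and adenoma replicate 3 by a hepatocyte transcription factor list mean of 0.31 (next -0.13). Adenoma replicate 4 stood apart by a mean correlation with the other fixed arrays of 0.898 (next 0.937).

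Among the foci, replicate 5 was low in Ggt1 at 8.68 and in Clec4f at 8.80, replicate 7 high in Ctss at 8.75, replicate 8 high in C1qc at 9.75 and replicate 1 high in Obp3 at 7.13. Focus replicate 6 had the lowest mean correlation of the foci, 0.930. In surrounding liver, animal 7 was high in Mki67 at 5.05. The surrounding liver of animal 18 was low in Cd163 at 7.18 and in Srxn1 at 5.96. That of animal 14 was high in Sult1c3 at 11.22, in Gclc at 11.38 and in the male-predominant list mean at 2.17.

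Among the genes named by rule or described array by array and the 26 lists, adenomas and foci differed in opposite directions in animals 10 and 7, without overlap within either animal, for 10 genes and 1 list. Gstp1 differed by -0.21 and 0.10, Cyp8b1 by 2.06 and -1.94, Hbb by -0.67 and 0.30 and RT1-Bb by -0.97 and 1.23. Slc1a2 differed by 1.96 and -1.22, Thrsp by -1.25 and 0.32, Nr1i3 by -0.43 and 0.14, Dpt by -0.90 and 0.78, Fbn1 by 0.81 and -0.52 and Dhrs7l1 by 2.71 and -1.78. The male-predominant list mean differed by 0.61 and -0.14. The difference between the animals was not tested, and animal 7 has 1 adenoma array. The share of all genes with such opposite separation was not counted. Separation in the same direction in both animals held for 2.46% (higher) and 2.36% (lower) of all genes. The 10 genes and 1 list are therefore given as values and not as a result about these genes. The fixed array labelled C43 normal, which entered no comparison, had a Cyp2c11 level of 13.53, above the 4 surrounding arrays (highest 13.19).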

How the results depend on the processing

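The count of called genes was 0 in 27 of 29 alternatives. Leaving out 1 array at a time gave 0 to 1 genes, with Cyp2c11 called without adenoma replicate 2 and Cyp8b1 without adenoma replicate 5. With no replicate block the count was 0 and 878 genes were at an unadjusted p under 0.05 in place of 633. That count was 371 with 1 mean per animal and lesion type, 339 of the 7108 genes above the median level and 1312 of 31042 probe sets tested apart. Of 734 alternative values for 24 named genes, 10 had the opposite sign, all of Gstp1, Akr1b8 or Mki67, and 1 passed. Apart from the 4 markers, these genes met the rule of small p, large difference and 1 sign in animals 10 and 7. That rule used the same arrays, so their stable sign was largely fixed by the choice and is no support. Of 806 alternative list medians 92 had the opposite sign. The macrophage and stellate medians stayed above 0 in all, at 0.39 to 0.82 and 0.14 to 0.49. The placement at 1 log2 unit, chosen after seeing the data, moved 3 of 28 values, all foci of animal 18, by over 1 SD of their own group. On genes lower in foci that SD was 14.4 points in foci and 43.9 points in adenomas. There adenoma replicate 3 went from -2.58% to 40.2% and replicate 2 from 68.6% to 98.3%, shifts that stayed within the wider SD of the adenomas. The cause of these shifts was not tested. Only animals 10 and 7 hold both lesion types, and the number of arrays limits the precision.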
